A study of Mus musculus with 12 samples.

Results

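Invariant narrow open regions at gene ends were 7003 stretches of chromatin that carried a called ATAC-seq peak in all 12 libraries of the series. They were chosen by measured values, with earlier results of these data known: peaks of the 12 lists were merged where they shared 1 bp or more, and a merged region on chromosomes 2 to 19 was kept when every library had a peak in it, it spanned less than 2500 bp and it lay within 1 kb of either end of a protein-coding gene. The 12 lists merged into 56682 regions, of which 13356 had a peak in every library, 12191 of them on chromosomes 2 to 19. The cells were mouse HoxB8 cells, bone marrow progenitors immortalised by the Hoxb8 homeobox gene and held as progenitors by estrogen and stem cell factor. ATAC-seq, which cuts open chromatin with a transposase, was done 48 h after estrogen was removed, in all groups. The 4 groups had 3 libraries each: sgB2/T618I cells carried a guide against Asxl1 (labelled B2) and overexpressed CSF3R-T618I from the pMICH vector, sgNT/T618I cells carried a non-targeting guide and the same vector with CSF3R-T618I, sgB2/Empty cells carried the Asxl1 guide and the empty vector, and sgNT/Empty cells carried the non-targeting guide and the empty vector. Nothing in the labels tells whether libraries 1 to 3 of a group came from separate cultures or clones, so the p-values below measure only the spread between these libraries, which may be technical. The cells are a pool in culture, and a region open in fewer cells cannot be told apart from a region less open in every cell.

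Open chromatin at the start of a gene is the nucleosome-poor stretch where the general transcription factors and RNA polymerase II assemble, and at genes that every cell uses it is usually narrow, rich in CpG and present whatever the cell does. CSF3R is the receptor for granulocyte colony-stimulating factor and signals through JAK kinases and STAT factors, T618I is an activating change in it known from chronic neutrophilic leukemia, and ASXL1 is a chromatin protein that works with the BAP1 deubiquitinase and with Polycomb complexes and is often mutated in myeloid disease. In this setting a progenitor that loses estrogen shuts genes of the progenitor state and opens genes of neutrophil maturation.

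The promoters of 8 genes show what these regions hold. Ap2a1 (chr7:44929441-44929740, minus strand) and Gata2 (chr6:88193641-88193940, plus strand) are shown as an example of the highest and of the lowest ranks, Asxl1 (chr2:153345580-153345879, plus strand) and Csf3r (chr4:126024409-126024708, plus strand) as the engineered genes, Mpo (chr11:87793534-87793833, plus strand) and Myo1c (chr11:75651900-75652199, plus strand) as regions whose rank changed with T618I, and S100a8 (chr3:90668821-90669120, plus strand) and Ece1 (chr4:137861987-137862286, plus strand) as regions whose rank changed with sgB2. Each sequence is the RefSeq entry of the GRCm38.p6 build, read 5′ to 3′ on the gene's strand, 250 bases before to 50 bases after the start, in lower case with matches to any of 14 short motifs in capitals on either strand.
Ap2a1: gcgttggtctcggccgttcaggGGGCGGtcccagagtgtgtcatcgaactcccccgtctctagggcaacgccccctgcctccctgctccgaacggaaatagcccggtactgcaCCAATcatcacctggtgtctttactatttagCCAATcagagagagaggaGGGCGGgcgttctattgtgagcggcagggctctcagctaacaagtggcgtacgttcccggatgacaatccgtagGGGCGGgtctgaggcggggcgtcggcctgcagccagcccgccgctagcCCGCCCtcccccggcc
Gata2: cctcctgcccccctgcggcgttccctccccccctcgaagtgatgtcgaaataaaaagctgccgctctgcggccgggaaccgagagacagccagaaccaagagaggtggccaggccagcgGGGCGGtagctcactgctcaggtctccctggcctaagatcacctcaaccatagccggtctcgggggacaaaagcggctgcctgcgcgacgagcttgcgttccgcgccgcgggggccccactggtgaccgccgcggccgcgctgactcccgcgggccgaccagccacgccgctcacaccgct
Asxl1: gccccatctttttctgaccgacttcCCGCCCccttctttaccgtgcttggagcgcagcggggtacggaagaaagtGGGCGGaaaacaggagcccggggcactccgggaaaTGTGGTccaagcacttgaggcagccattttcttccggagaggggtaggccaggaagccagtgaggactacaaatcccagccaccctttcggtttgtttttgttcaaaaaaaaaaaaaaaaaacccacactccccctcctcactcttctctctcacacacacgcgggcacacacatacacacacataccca
Csf3r: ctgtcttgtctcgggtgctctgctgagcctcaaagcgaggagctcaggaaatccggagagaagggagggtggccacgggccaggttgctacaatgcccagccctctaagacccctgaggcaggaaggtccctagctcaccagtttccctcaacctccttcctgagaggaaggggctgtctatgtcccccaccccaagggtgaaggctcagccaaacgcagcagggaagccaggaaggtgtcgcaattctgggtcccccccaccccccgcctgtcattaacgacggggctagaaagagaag
Mpo: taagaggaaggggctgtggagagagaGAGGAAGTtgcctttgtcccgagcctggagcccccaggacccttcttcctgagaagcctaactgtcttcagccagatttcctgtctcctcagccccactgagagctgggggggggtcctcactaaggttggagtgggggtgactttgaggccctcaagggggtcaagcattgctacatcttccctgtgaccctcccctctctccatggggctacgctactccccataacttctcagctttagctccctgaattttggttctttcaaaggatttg
Myo1c: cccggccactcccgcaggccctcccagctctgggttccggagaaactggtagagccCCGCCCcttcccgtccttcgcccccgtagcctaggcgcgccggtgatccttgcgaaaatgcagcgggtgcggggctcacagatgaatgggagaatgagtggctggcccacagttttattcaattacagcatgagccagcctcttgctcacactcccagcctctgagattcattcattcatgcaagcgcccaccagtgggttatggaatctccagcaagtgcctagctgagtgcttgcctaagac
S100a8: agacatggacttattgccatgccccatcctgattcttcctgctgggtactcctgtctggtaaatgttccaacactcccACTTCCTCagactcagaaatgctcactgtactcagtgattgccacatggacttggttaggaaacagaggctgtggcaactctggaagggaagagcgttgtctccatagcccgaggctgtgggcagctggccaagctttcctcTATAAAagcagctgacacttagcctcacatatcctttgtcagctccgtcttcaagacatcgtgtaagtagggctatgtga
Ece1: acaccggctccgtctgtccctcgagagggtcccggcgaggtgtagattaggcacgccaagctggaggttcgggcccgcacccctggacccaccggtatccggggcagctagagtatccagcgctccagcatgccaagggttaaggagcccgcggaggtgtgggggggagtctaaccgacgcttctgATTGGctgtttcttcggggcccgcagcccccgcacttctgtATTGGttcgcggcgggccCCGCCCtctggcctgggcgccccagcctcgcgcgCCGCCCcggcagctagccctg
The capitals in Ap2a1 mark CCAAT boxes (CCAAT, the site of NF-Y) and GC boxes (GGGCGG, the site of SP and KLF factors), and those in Ece1 mark the same motif pair. Gata2, Asxl1 and Myo1c hold a GC box, and Asxl1 also the letters TGTGGT of a RUNX site. Mpo and S100a8, genes of the neutrophil granule and cytosol, each hold GAGGAAGT, a preferred site of the myeloid factor PU.1, and S100a8 holds a TATA box (TATAAA) upstream of its start. None of the 14 motifs matched in the Csf3r window. The ratio of observed to expected CpG was 0.806 in Ap2a1, 0.9 in Gata2, 0.777 in Ece1, 0.613 in Asxl1 and 0.537 in Myo1c, against 0.326 in Csf3r, 0.214 in S100a8 and 0.0871 in Mpo.

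A peak list held between 18484 and 32975 peaks covering 9.23 to 17.9 Mb, and read depth is unknown because the lists carry no counts. The lists of the T618I groups held 23695 to 32975 peaks and those of the Empty groups 18484 to 29699, with the 2 shortest being sgNT/Empty replicate 1 (18484) and sgB2/Empty replicate 1 (20293). Because list length moves with the groups, a region's strength was its rank: the percentile of the authors' −log10 p of its strongest peak among the 13356 regions found in every library, computed within each library, with 100 the strongest. The part of list length in the results was not tested beyond the alternatives given beside them. The lineage markers were as follows: every one of the 10 granulocyte-monocyte progenitor genes and every one of the 8 primary granule genes had a peak at an end in at least 1 library, against 0 libraries for 8 of 10 neuronal, 7 of 10 B lymphoid and 7 of 9 T lymphoid genes. All 10 monocyte-macrophage genes had one too, while 2 of 8 erythroid-megakaryocyte, 4 of 8 mast-basophil-eosinophil, 1 of 11 stem and progenitor, 3 of 9 secondary granule and 2 of 12 mature neutrophil genes had none in any library. A peak in all 12 libraries was less common, at 6 of 10 granulocyte-monocyte progenitor and 3 of 8 primary granule genes, with Elane, in both lists, at 1 library. It was present at 4 of 10 monocyte-macrophage, 2 of 10 B lymphoid, 1 of 9 T lymphoid and 0 of 10 neuronal genes. A lack of peaks does not show that a gene is unused, since the cytosolic ribosomal protein genes Rps2, Rpl17, Rpl19 and Rps25 had none either. In that list 7 of 74 genes had none, the others being Rpl10l, Rpl32l and Rpl39l.

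The 7003 regions were 292 to 2497 bp wide after merging, with a median of 927 bp and a middle range of 758 to 1193 bp, and in a single library a region covered a median of 699 bp on average. A single peak filled the region in every library in 96.8% of them. It did so in 96.3% of the 1401 invariant regions under the same width limit over 10 kb from any gene. The 7003 regions touched 8080 protein-coding genes, 41.5% of the 19457 on these chromosomes. Most (5601) touched 1 gene, 1359 touched 2 genes and 42 touched 3, and 90.5% overlapped the gene end itself.

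Strand, known for genes with a listed promoter, put 5633 regions (80.4%) at a gene's start and 159 (2.27%) only at its far end, while 1211 could not be placed. Of the 6822 regions on chromosomes with listed promoters, 5431 (79.6%) held a listed start site, and the region centre lay a median of 36 bp into the gene, with a middle range of 63 bp before to 148 bp after the start (−63 to 148 bp). In 39.9% the centre lay upstream. Divergent pairs, where 2 genes start from 1 region in opposite directions, made up 740 regions (13.1% of those at a start), and had a median width of 991 bp and a median mean rank of 70.6, against 922 bp and 60.2 at starts of a single direction.

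The values next to the limits of the rule are given as a description. The widest regions inside were at Lrch1 (2497 bp), Zfp777 (2484 bp) and Trim8 (2483 bp), and the narrowest outside at Cebpb (2503 bp), Emid1 (2509 bp) and Lrrc8d (2509 bp). Farthest from a gene end inside were the regions at Rps27l, Tmem230 and Sh2b2, and nearest outside those at Ccr2 (1001 bp), Arih1 (1002 bp) and Plcd3 (1011 bp). A further 388 narrow regions at gene ends had a peak in 11 libraries. Of these, 159 lacked it in sgNT/Empty replicate 1 and 89 in sgB2/Empty replicate 1, and the 3 strongest, by mean percentile over the libraries that had them, were at S100a9, a calprotectin gene, absent from sgB2/Empty replicate 1, Map3k20, absent from sgB2/Empty replicate 2, and Lysmd1, absent from sgNT/Empty replicate 1.

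Across the 12 libraries the narrow regions at gene ends had a median mean rank of 59.8. It was 33.9 for the 1401 invariant regions below 2500 bp over 10 kb from any gene. For the 59 wide regions, invariant regions of 2500 bp or more at gene ends, it was 31.3. The distant regions shared the width limit but not the width, with a median merged width of 754 bp, against 927 bp at gene ends. The median rank of the gene-end regions exceeded that of the distant regions in 12 of 12 libraries, by 26.3 ± 2.37 points (SD, n = 12 libraries; range 20.4 to 29.7), and that of the wide regions in 12 of 12, by 29.2 ± 3.2 points (range 24.8 to 35.9). A single peak filled the region in every library in 25.4% of the wide regions, against 96.8% of the narrow gene-end regions. Rank is that of the strongest peak and does not measure opening over a whole wide region. How far peak width enters the −log10 p was not tested. The narrow gene-end regions were 7003 and the distant ones 1401 of the 13356 invariant regions. Of the 1000 strongest, 776 were narrow gene-end regions and 35 were distant ones, and of the 1000 weakest, 323 and 154 were.

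**Figure D1:**
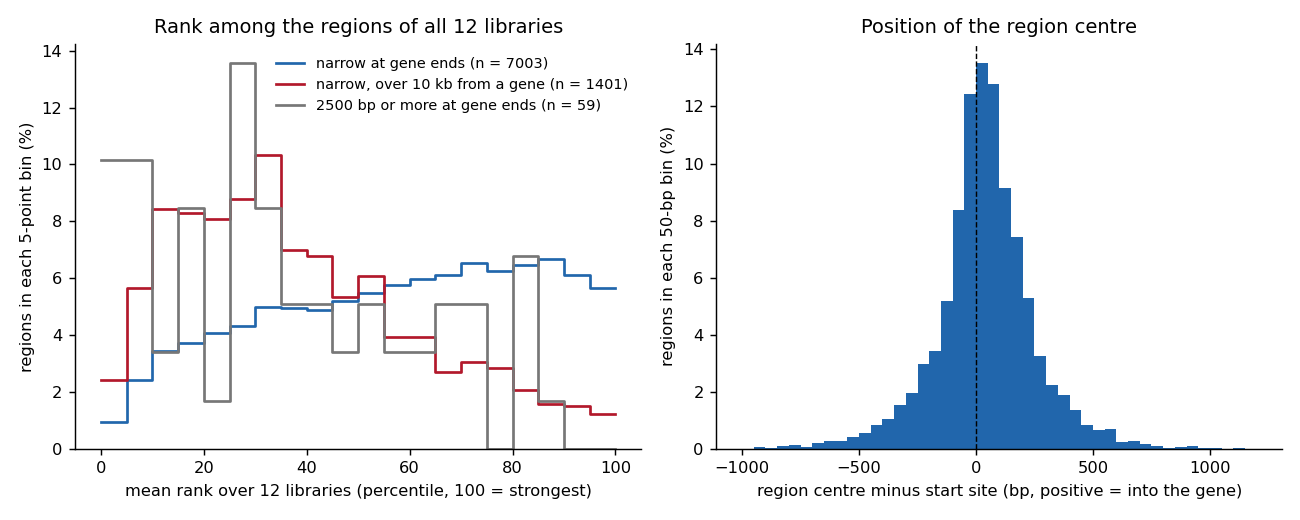
Left, share of regions (%) in each 5-point bin of mean rank over 12 libraries for the 7003 narrow regions at gene ends, the 1401 narrow regions over 10 kb from a gene and the 59 wide regions at gene ends; right, share of the regions holding a listed start site in each 50-bp bin of the distance from that start to the region centre (bp, positive into the gene). The gene-end regions rise toward high ranks, with a median of 59.8, while the distant ones pile up at low ranks, and the centres gather around the start with a median of 36 bp.

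The spread of rank between libraries was smaller than in the distant regions and close to that of the wide regions, with no test made. The SD of a region's rank over the 12 libraries had a median of 9.02 points at gene ends, against 11.8 points in the distant regions and 8.68 points in the wide regions. The SD of a percentile varies with mean rank, in which the kinds differ. By class of mean rank the gene-end and distant medians were 8.48 and 9.12 points from 0 to 25, and 12.1 and 14.1 from 25 to 50. They were 10.2 and 13.2 from 50 to 75, and 4.92 and 6.6 from 75 to 100. Over the gene-end regions the Spearman correlation of ranks averaged 0.912 between libraries of the same group (12 pairs) and 0.87 between libraries of different groups (54 pairs), against 0.849 and 0.688 over the distant regions; these are descriptions across regions that share their libraries. Width and rank were nearly unrelated among the 7003 regions, with a Pearson correlation of 0.104 between mean log2 covered length and mean rank.

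The highest mean rank was at the region shared by Ap2a1, a subunit of the clathrin adaptor, and Tsks, a testis gene (chr7:44929260-44930068), at 99.9 on average, with 99.9 or more in each of the 12 libraries and an SD of 0.0215. The 7 next were at Osbp (an oxysterol-binding protein), Khsrp (an RNA-binding protein) with Slc25a41, Tomm40 (the mitochondrial import pore) with Nectin2, Mtmr4 (a lipid phosphatase), Gins2 (a subunit of the replicative helicase), Mob3a with Izumo4, and Cbwd1, with mean ranks of 99.8 to 99.9. At the bottom were regions at Elovl3 and Pitx3 (1.15), Zfp362 (1.22), Gata2 (1.45), a transcription factor of stem and mast cells, and Hsd11b2 (1.47). The 4 largest SDs of rank belonged to Garem1 (34.0), Fcor (31.6), Ece1 (30.5) and Ptpn6 with Grcc10 (29.8).

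The letters of the promoters differed with rank and with membership. Of 18871 listed promoters on these chromosomes, 6868 had their start inside a narrow invariant gene-end region, and the median ratio of observed to expected CpG was 0.826 in those, against 0.585 in all listed promoters. A GC box was present in 71.9% of the 6868, against 47.1% of all. The long ETS site CCGGAAGT was present in 11.2% of the 6868 against 5.29% of all, the NRF1 site GCGCATGC in 7.02% against 3.58%, the YY1 site ATGGCGGC in 6.7% against 3.11%, the E-box CACGTG (bound by MYC, MAX and USF) in 11.8% against 7.85%, and the TATA box in 5.3% against 12.9%. The ETS and PU.1 letters share GGAAGT and are counted apart. Within the regions the CCAAT box differed by the most percentage points of the 14 motifs between the ends of the rank order: 62.5% of the 791 promoters in the top 10% of regions by mean rank held it, against 25.4% of the 568 in the bottom 10% and 40.5% over all 6868. Matches are letters in a 300-base window and not measured binding.

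Most genes of basic cell functions were covered, and lineage genes unevenly. A narrow invariant region stood at an end of 52 of 53 splicing factor genes, 28 of 30 aminoacyl-tRNA synthetase genes and 60 of 65 genes of RNA polymerase II and Mediator. The counts were 67 of 74 cytosolic and 65 of 73 mitochondrial ribosomal protein genes, 26 of 29 DNA replication genes and 41 of 47 translation factor genes. Coverage was lowest at 57 of 69 oxidative phosphorylation genes and 37 of 46 proteasome genes. Signalling and chromatin genes linked to the engineered pair were covered as well, with 17 of 18 JAK-STAT genes and 22 of 25 Polycomb and ASXL-BAP1 genes. Of the myeloid lists, 4 of 10 granulocyte-monocyte progenitor genes, 3 of 8 primary granule genes, 3 of 9 secondary granule genes, 4 of 12 mature neutrophil genes and 3 of 10 monocyte-macrophage genes had one, beside 7 of 11 stem and progenitor genes. Genes of other lineages were mostly without: 1 of 9 T lymphoid, 2 of 10 B lymphoid, 0 of 10 neuronal, 1 of 49 keratin and 2 of 1073 olfactory receptor genes. Among ribosomal protein genes the regions had a median mean rank of 73.4, with Rpl13a (98.5), Rpl27 (97.0) and Rps19 (94.8) highest, and among stem and progenitor genes the median was 18.1.

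**Figure D2:**
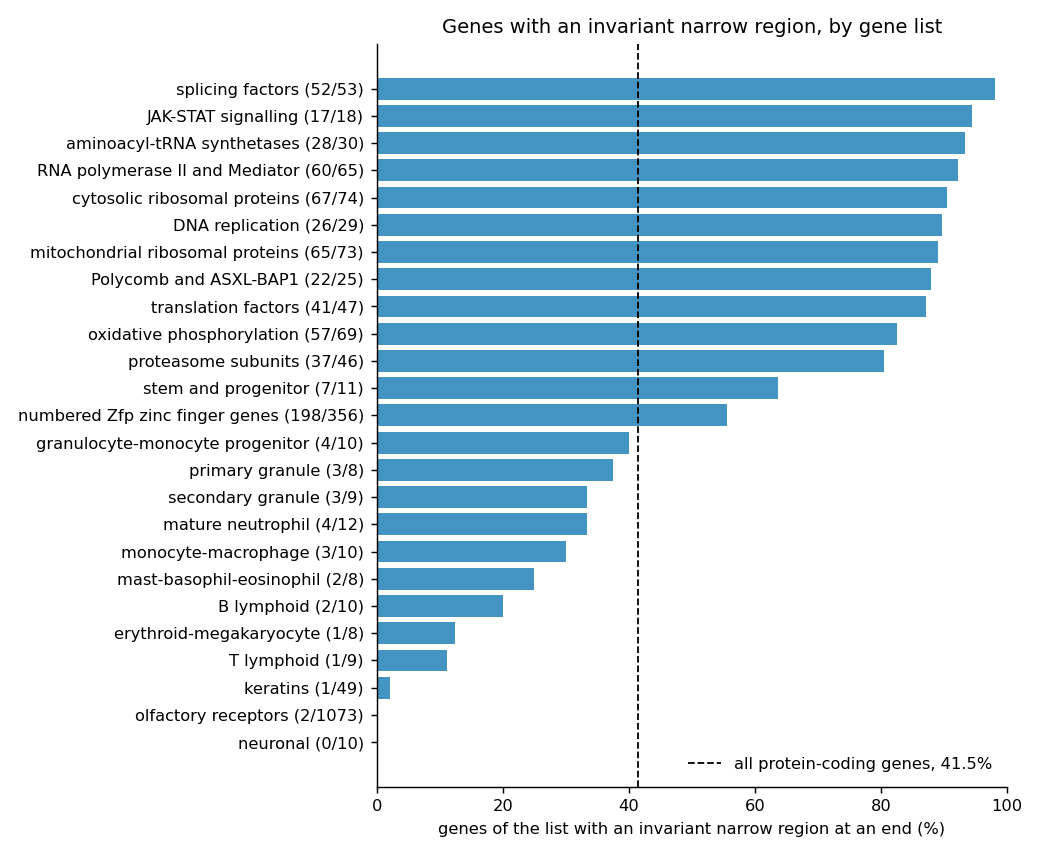
Percentage of the genes of each of 25 lists, on chromosomes 2 to 19, that had a narrow invariant region at an end, with the genes that had one and the genes in the list in brackets; the dashed line is the share of all protein-coding genes, 41.5%. Lists of basic cell functions lie at 80.4% or more, the blood lineage lists other than stem and progenitor genes at or below the 40% of granulocyte-monocyte progenitor genes.

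No library-wide property of the gene-end regions passed a test between the groups. Since every library had a peak in each of them, they held 7026 to 7090 peaks of any list, and their share of a list falls as the list gets longer. They held 25.8 ± 3.07% of the peaks in T618I libraries and 29.8 ± 5.57% in Empty libraries (SD, n = 6 each), and 36.4 ± 2.84% of the covered bases in T618I libraries and 40.8 ± 5.13% in Empty libraries. With lists cut to equal length the differences of −3.99 and −4.43 percentage points became −0.106 and −1.11. Their median covered width was 729 ± 49 bp in T618I libraries and 653 ± 78.9 bp in Empty libraries (exact stratified permutation p = 0.05, adjusted p = 0.3 over 12 tests), and 661 ± 64.8 bp in sgB2 libraries and 722 ± 75 bp in sgNT libraries (p = 0.105, adjusted p = 0.36, n = 6 each, exact permutation). The lead in rank over the wide regions was 27.2 ± 2.69 points in T618I libraries and 31.1 ± 2.55 points in Empty libraries (exact permutation p = 0.02, adjusted p = 0.24). All 12 adjusted p-values were 0.24 or more, and the smallest raw p these 400 arrangements allow is 0.005. After adjustment over 12 tests, a single property alone at that smallest p could not have passed 0.05. The lack of a pass therefore does not show that the groups were alike.

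Single regions did change rank with T618I. Of the 7003 regions 448 were higher (6.4%, against 9.67% of all 13356 invariant regions) and 473 were lower (6.75%, against 8.59% of all) at an adjusted p below 0.05 over all 13356. Called in either direction were 13.2% of the gene-end regions, against 29.6% of the 1401 distant narrow regions, 11.9% of the 59 wide regions at gene ends and 18.3% of all invariant regions. The share was lower at gene ends in each of 4 classes of rank: between mean ranks of 75 and 100 it was 12.4% (270 of 2185) at gene ends and 29.5% (38 of 129) in distant regions, and between 0 and 25 it was 11.6% (119 of 1023) at gene ends and 26.3% (121 of 460) in distant regions. This difference between kinds of region was not tested. The called changes had medians of +17.1 points upward and −17.6 points downward. The 6 T618I libraries all lay above the 6 Empty libraries at 1.36% of the gene-end regions, against 2.55% of all 13356, and all lay below at 1.47%, against 2.52% of all. Of the called regions this was so at 92 called higher and 96 called lower.

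Regions reached only at a gene's far end were called at 33 of 159 (20.8%), near the 18.3% of all invariant regions, and regions at starts at 730 of 5633. The count rests partly on single libraries and on the scale of rank. Leaving out sgNT/Empty replicate 1 gave 594 calls, leaving out sgNT/T618I replicate 2 gave 598 and leaving out sgB2/Empty replicate 2 gave 612, against 921 with all; without both shortest lists there were 522 (274 higher, 248 lower). Percentiles within each whole list, whose lengths differ, gave 320 higher and 90 lower (78.0% higher, against 48.6%) and shifted the median of all 13356 regions by +2.12 points, against −0.12. Ranking by the authors' fold over background in place of −log10 p gave 227 calls, 203 of them among the 921 in the same direction. Of all 13356 regions, ranks by fold called 5.83% and whole-list percentiles 9.64%.

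**Figure D3:**
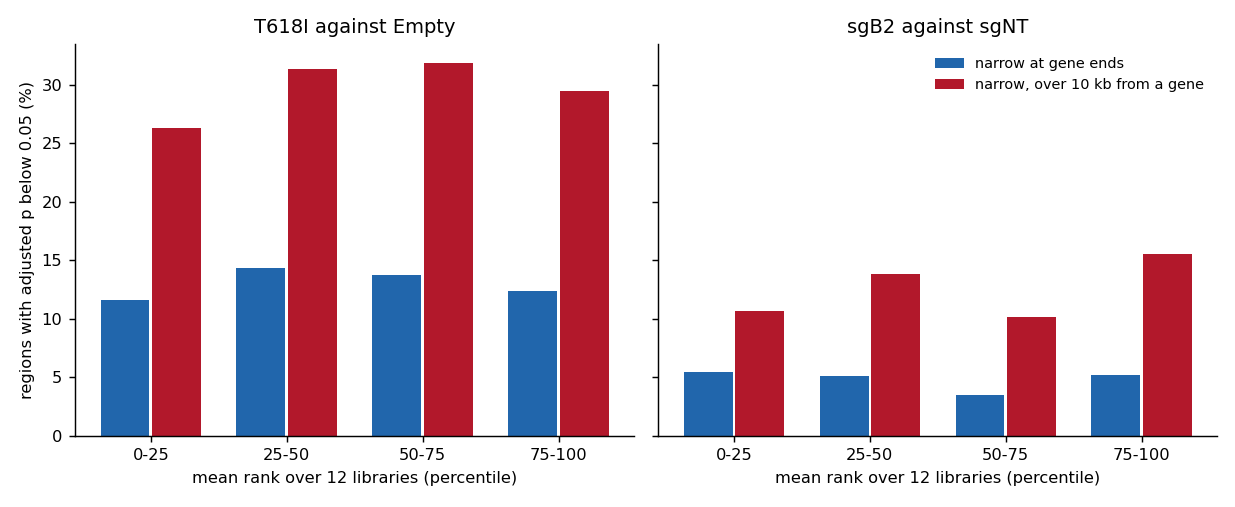
Percentage of regions with an adjusted p below 0.05 for a change of rank with T618I against Empty (left) and with sgB2 against sgNT (right), by mean rank over 12 libraries, for narrow invariant regions at gene ends and narrow invariant regions over 10 kb from a gene. The gene-end bars are the lower ones in all 4 rank classes of both comparisons.

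Among the regions that rose with T618I, the 6 with the smallest p were at Pla1a, Pqlc3, Myo1c, Gm9733, Soat2 with Igfbp6, and Map3k8. At Pla1a, a phospholipase that acts on phosphatidylserine (chr16:38394159-38395306), the lowest, median and highest ranks were 87.4, 92.6 and 94.4 in T618I libraries, against 37.0, 47.9 and 65.0 in Empty libraries (change +43.2 ± 4.47 points, SE, adjusted p = 2.81e-05). At Myo1c, a class I myosin motor (chr11:75651430-75652188), they were 21.8, 42.9 and 54.7 in T618I libraries, against 0.655, 6.81 and 10.6 in Empty libraries (+34.4 ± 3.78, adjusted p = 3.77e-05). In both the 6 T618I libraries all lay above the 6 Empty libraries.

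Map3k8, the TPL2 kinase upstream of ERK in inflammatory signalling, ranged over 64.6 to 81.7 in T618I libraries, against 14.8 to 57.1 in Empty libraries (+39.8 ± 5.38, adjusted p = 0.000172). Soat2, an enzyme of cholesterol ester synthesis that shares its region with Igfbp6, rose by 33.0 points, Gm9733 by 35.4 and Pqlc3 by 17.1. Ranked by fold over background, the call at Soat2 was lost (+6.25).

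Among the regions that fell with T618I, the one with the smallest p was at Mpo, the myeloperoxidase of primary granules (chr11:87793280-87794168). Its lowest, median and highest ranks were 0.955, 4.76 and 15.9 in T618I libraries, against 48.2, 58.6 and 70.1 in Empty libraries (change −51.5 ± 4.88 points, SE, adjusted p = 1.78e-05). Every T618I library lay below every Empty library. Ranked by fold over background the change at Mpo was −6.34 points and was not called.

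The region at Plac8, a small cysteine-rich protein found in myeloid cells, had ranks of 4.14, 9.46 and 10.2 in T618I libraries, against 26.7, 32.8 and 36.1 in Empty libraries (−23.9 ± 3.43, adjusted p = 0.000286). Foxo6, a forkhead factor, fell by 42.4 points, Six5, a homeobox factor whose region is shared with the kinase gene Dmpk, by 44.3, Otud1, a deubiquitinase, by 40.6, and Usp2, another deubiquitinase, by 15.3. All 12 calls named here for T618I held without any 1 library and without both shortest lists, and 10 of the 12 held with ranks by fold.

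**Figure D4:**
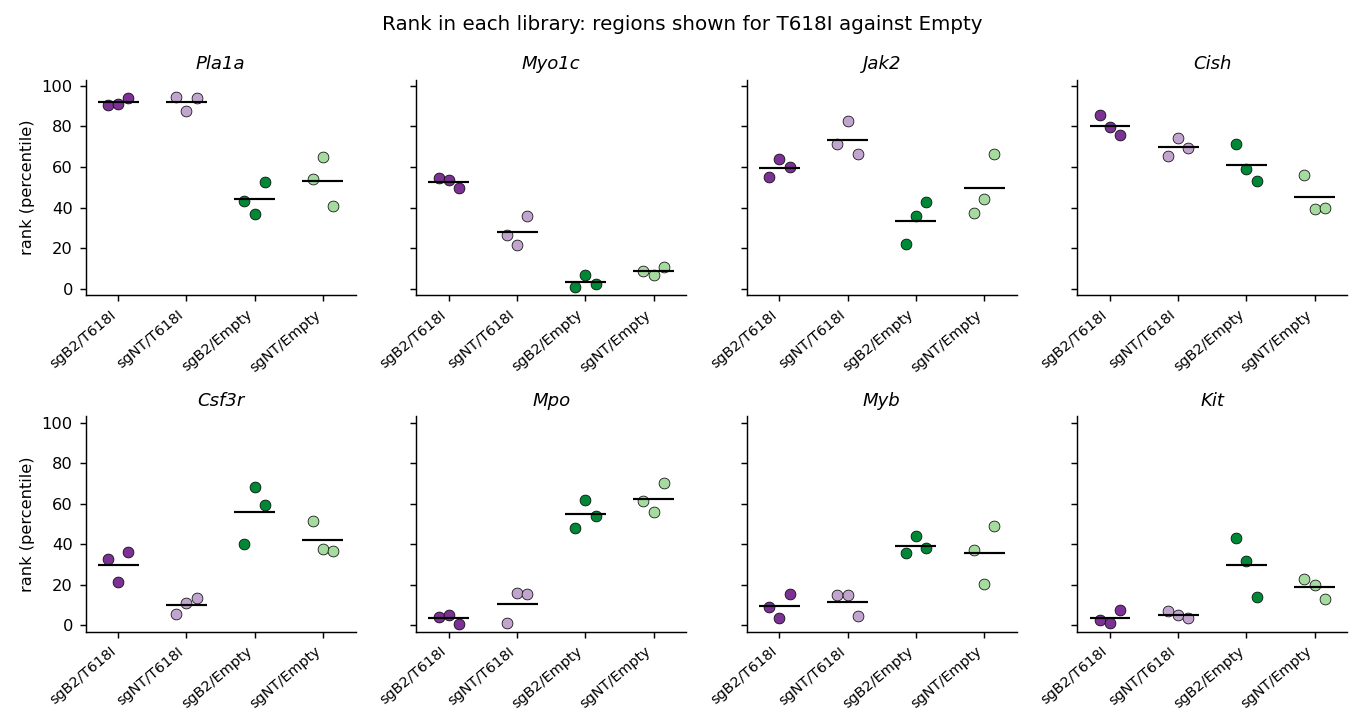
Rank (percentile among 13356 regions, 100 the strongest) in each of the 12 libraries at 8 gene-end regions, by group; points are libraries and bars are means of 3. Pla1a, Myo1c, Jak2 and Cish are higher in T618I groups, and Csf3r, Mpo, Myb and Kit are lower, with Jak2 and Cish overlapping between T618I and Empty libraries; Cish is its start region, whose sign turned with ranks by fold over background.

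The JAK-STAT genes, which carry and limit signals of the CSF3 receptor, had 18 regions at 17 genes, of which 5 were higher and 2 lower with T618I, beside 9.67% and 8.59% of all 13356 regions. Their median change was +2.97 points, against −0.12 over all 13356 regions. The 5 were at feedback inhibitors and a kinase. Cish, a STAT5-induced inhibitor, had a region at each end of the gene. At the start (chr9:107295824-107297082) ranks were 65.2, 75.2 and 85.4 in T618I libraries, against 39.2, 54.5 and 71.3 in Empty libraries (+22.0 ± 4.96, adjusted p = 0.00669).

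The region at the far end of Cish (chr9:107303093-107303700) had 25.6, 31.8 and 46.2 in T618I libraries, against 4.51, 9.95 and 18.3 in Empty libraries (+21.7 ± 3.96, adjusted p = 0.00176). Socs3, an inhibitor that binds the CSF3 receptor, had 62.8, 66.5 and 76.9 in T618I libraries, against 37.9, 46.4 and 59.6 in Empty libraries (+21.2 ± 5.26, adjusted p = 0.0118). At both of these regions the 6 T618I libraries lay above the 6 Empty ones, while at the Cish start they overlapped.

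Jak2, the kinase itself, rose by 25.1 points (adjusted p = 0.0122) and Socs1, another inhibitor, by 16.5 (adjusted p = 0.0484). The Socs1 call was lost without any of 10 single libraries (+13.5 to +18.6), and the Jak2 call was lost without both shortest lists. With ranks by fold over background none of these 5 calls was kept, and the sign turned at the Cish start (−9.42), Socs3 (−5.56) and Socs1 (−4.08). The 2 that fell were Csf3r, described next, and Ptpn6 (−19.9 points, adjusted p = 0.0163), whose call was lost without both shortest lists and with ranks by fold. Ptpn6 averaged 10.9 ± 9.42 in sgB2/T618I and 50.4 ± 6.22 in sgB2/Empty libraries, and 79.2 ± 1.79 in sgNT/T618I and 79.6 ± 4.49 in sgNT/Empty libraries (SD, n = 3 each). The difference between the backgrounds was −39.1 points and did not pass over all regions (limma, adjusted p = 0.311).

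The engineered genes both had a narrow invariant region at their start. At endogenous Csf3r (chr4:126024127-126025120) the lowest, median and highest ranks were 5.76, 17.5 and 36 in T618I libraries, against 36.6, 45.8 and 68.4 in Empty libraries (−28.9 ± 5.68, adjusted p = 0.00289), so that no T618I library reached an Empty one; the call was kept without any 1 library and with ranks by fold (−26.9). With sgB2 its change was +17 points and did not pass (adjusted p = 0.0752). At Asxl1 (chr2:153345409-153346618) the ranks were 59.2, 77.2 and 88.3 in sgB2 libraries, against 71.7, 83.4 and 87.5 in sgNT libraries (−6.34 ± 3.67, adjusted p = 0.31), and the 2 sets overlapped. A guide cut need not alter the accessibility of the promoter, so this value does not check the edit.

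Regions of the progenitor and granule programme moved in both directions with T618I. All 3 called stem and progenitor genes fell: Myc, the growth regulator (chr15:61984865-61985807), had ranks of 2.96, 18.7 and 27.3 in T618I libraries, against 21.5, 46.2 and 72.4 in Empty libraries (−30.5 ± 6.29, adjusted p = 0.00393). Myb, a factor that holds progenitors immature (chr10:21160622-21161731), had 3.9, 11.8 and 15.4 in T618I libraries, against 20.2, 37.8 and 49.0 in Empty libraries (−26.9 ± 4.88, adjusted p = 0.00165). Kit, the stem cell factor receptor (chr5:75574703-75576150), had 1.04, 4.36 and 7.68 in T618I libraries, against 13.3, 21.5 and 43.0 in Empty libraries (−19.6 ± 4.19, adjusted p = 0.00485).

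At Myb and Kit the groups did not overlap. The median over the 7 stem and progenitor regions was −7.04 points; these 3 calls were kept without any 1 library, while the Myc call was lost with percentiles in the whole list and the Kit call with ranks by fold. Of 3 primary granule regions, Mpo and Ms4a3, a membrane protein of granulocyte progenitors, fell (−16.4 points for Ms4a3), and Ctsc did not pass. Of the 4 granulocyte-monocyte progenitor regions 1 was called higher, at Cebpe, a factor of granule gene expression (+16.4 points), and 1 lower, at Mpo. Of the regions at later genes, S100a8 rose by 17.4, and Camp, the cathelicidin of secondary granules, fell by 20.7. The calls at Ms4a3, Cebpe, S100a8 and Camp were lost without any of 7, 9, 9 and 7 single libraries. With ranks by fold none of these was kept and S100a8 turned to −23.2 points.

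In the lists of basic functions regions moved in both directions, beside 6.4% of all gene-end regions that were higher and 6.75% that were lower. Of 71 cytosolic ribosomal protein regions 2 were higher and 6 lower with T618I (median −3.71 points), of 62 regions of RNA polymerase II and Mediator 2 and 8 (median −4.42), of 53 splicing factor regions 0 and 3 (median −2.57), of 30 aminoacyl-tRNA synthetase regions 0 and 2 (median −2.52), of 43 translation factor regions 3 and 3 (median −1.53), of 37 proteasome regions 3 and 1 (median −0.27) and of 193 regions at numbered Zfp genes 10 and 13 (median −0.01). Over all 7003 regions the median was −0.46. The largest of the ribosomal changes was a rise at Rps9 (chr7:3706748-3707460), with 40.3, 53.6 and 69.6 in T618I libraries, against 8.31, 19.1 and 37.5 in Empty libraries (+32.3 ± 5.86, adjusted p = 0.00168). Among Mediator genes Med11 rose (95.8, 98.0 and 99.0 in T618I libraries, against 87.3, 90.8 and 97.3 in Empty libraries) with a call lost under ranks by fold, as was that of Rps9, and Med26 fell (79.4, 85.1 and 88.9 in T618I libraries, against 89.0, 93.5 and 94.5 in Empty libraries). Of the 22 Polycomb and ASXL-BAP1 regions Eed, a core subunit of the PRC2 methyltransferase, was higher and Pcgf1 and Phc2, subunits of PRC1, were lower, and each of these 3 calls was lost without 7 or more single libraries in turn (Eed 9, Pcgf1 9, Phc2 7).

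With sgB2 fewer regions changed. Of the 7003 regions 150 were higher (2.14%, against 4.48% of all 13356) and 179 were lower (2.56%, against 4.01%), together 4.7%, against 12.2% of the distant narrow regions and 1.69% of the wide regions. The background includes chromosome 1, outside the rule, where 32.3% of regions were called and 279 of 283 calls were higher. The 6 sgB2 libraries all lay above the 6 sgNT libraries at 0.528% of the gene-end regions, against 1.56% of all 13356, and all lay below at 0.828%, against 1.25% of all. Of the called regions this was so at 34 called higher and 46 called lower. Leaving out sgNT/Empty replicate 3 gave 169 calls and leaving out sgNT/T618I replicate 2 gave 190, against 329. Leaving out sgNT/T618I replicate 1 gave 196 and leaving out sgNT/Empty replicate 2 gave 211. Over all 13356 regions these fits called, in that order, 5.21%, 5.64%, 5.85% and 5.95%, against 8.48%. Ranks by fold gave 31 (18 higher, 13 lower), beside 0.801% of all, and whole-list percentiles 69, beside 2.07% of all. Ranked among the 12191 regions of chromosomes 2 to 19 alone, 142 were higher and 98 lower (59.2% higher, against 45.6%). That was 240 of the 7003, beside 636 of the 12191 (5.22%). The larger direction thus turned with the set of regions ranked.

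The clearest rise was at Ece1, the endothelin-converting enzyme (chr4:137861850-137862535), with 55.8, 67.6 and 72.8 in sgB2 libraries, against 2.27, 7.94 and 14.5 in sgNT libraries (+57.4 ± 4.53 points, SE, adjusted p = 5.82e-06). Hmgn1, a nucleosome-binding protein (chr16:96127291-96128340), had 54.1, 58.2 and 72.1 in sgB2 libraries, against 10.2, 12.9 and 36.4 in sgNT libraries (+44.4 ± 5.76, adjusted p = 0.000392). Both sets of libraries were apart.

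Garem1, an adaptor of growth factor receptors, rose by 56.9 points, Ttc12 by 43.0, Fsip1 by 35.7 and Tspan17 with Eif4e1b by 30.1. The largest fall was at Fcor, a corepressor of FOXO1 (chr8:3671963-3672556), with 5.71, 17.2 and 34.8 in sgB2 libraries, against 66.6, 77.6 and 83.4 in sgNT libraries (−58.4 ± 5.89, adjusted p = 6.95e-05). At Ptpn6, the SHP-1 phosphatase that dampens cytokine receptor signals, with its neighbour Grcc10 (chr6:124738515-124738991), ranks were 0.0262, 30.1 and 55.8 in sgB2 libraries, against 74.5, 80.2 and 83.1 in sgNT libraries (−48.8 ± 5.24, adjusted p = 0.000104).

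S100a8, a subunit of calprotectin and an abundant protein of neutrophils (chr3:90668816-90669421), had 31.0, 40.1 and 67.7 in sgB2 libraries, against 74.7, 84.0 and 94.5 in sgNT libraries (−38.9 ± 5.25, adjusted p = 0.000483). In all of these falls the sgB2 libraries lay below the sgNT libraries. Stx16, a syntaxin of the Golgi, fell by 33.3 points, Paqr7, a membrane progesterone receptor, by 17.9, and the histone pair H2ac12 and H2bc12 by 17. All 12 calls named for sgB2 held without any 1 library and without both shortest lists; 6 held with ranks by fold, which did not keep Ptpn6 (−17.2), S100a8 (−17.1), Hmgn1 (+34.3), Tspan17 (+19), Paqr7 (−21.2) and H2ac12 (−1.33).

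**Figure D5:**
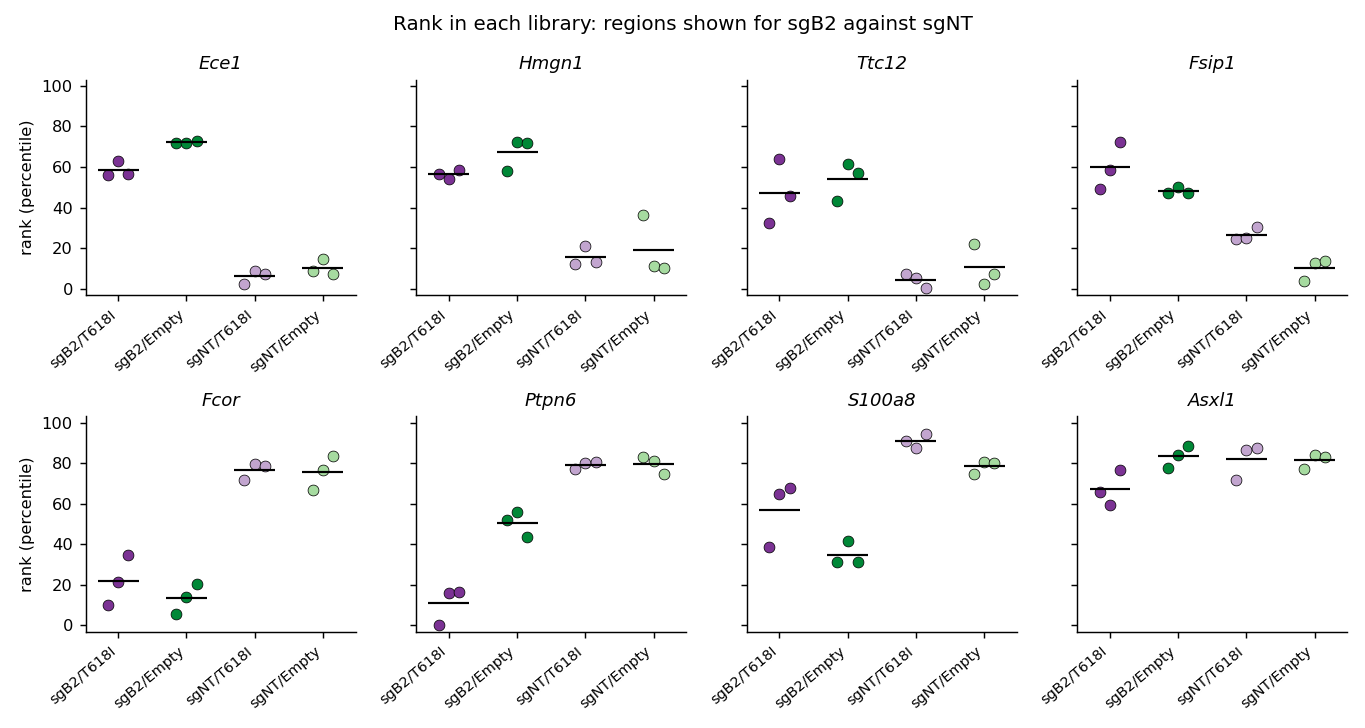
Rank (percentile among 13356 regions, 100 the strongest) in each of the 12 libraries at 8 gene-end regions, by group, with sgB2 groups on the left; points are libraries and bars are means of 3. Ece1, Hmgn1, Ttc12 and Fsip1 are higher and Fcor, Ptpn6 and S100a8 lower in the sgB2 groups, while at Asxl1 the groups overlap.

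By list, beside 2.14% of all gene-end regions higher and 2.56% lower with sgB2, 2 of 71 cytosolic ribosomal protein regions were higher and 0 lower (median +1.42 points, against −0.23 over all 13356 regions), and 0 of 18 JAK-STAT regions were higher and 1, at Ptpn6, was lower (median −0.76). Of 22 Polycomb and ASXL-BAP1 regions 1, at Phc2, was higher and 0 were lower (median −0.41). Of the 7 stem and progenitor regions 1, at Runx1, was higher (+12.4 points) and 0 were lower. The calls at Phc2 and Runx1 were lost without 10 and 8 of the 12 single libraries in turn.

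Width changed at few of the regions. Covered length per region, on a log2 scale and scaled to the library's median over the 13356 regions, was higher with T618I at 45 regions (0.643%, against 1.3% of all) and lower at 16 (0.228%, against 0.479%). With sgB2 it was higher at 4 (0.0571%, against 0.0973%) and lower at 12 (0.171%, against 0.217%). The split with T618I depends on the scaling: without scaling 99 were higher and 0 lower, with the median of all regions at +0.15 on the log2 scale, and scaled to total covered length 24 were higher and 32 lower, with that median at −0.18, against −0.04 in the values above. No direction named below turned under any of these 3 scalings.

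The region at Mon1a, a factor of endosome maturation (chr9:107887841-107888842), covered 851, 900 and 983 bp (lowest, median, highest) in T618I libraries, against 436, 517 and 589 bp in Empty libraries (log2 change +0.65 ± 0.07, SE, adjusted p = 0.00129). Tgfbr2, a receptor of TGF-beta (chr9:116174572-116175957), covered 882, 1236 and 1356 bp in T618I libraries, against 461, 557 and 830 bp in Empty libraries (+0.84 ± 0.11, adjusted p = 0.00263). Every T618I library was the wider at both, and the Mon1a call was lost when widths were scaled to total covered length.

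Ifitm2, an interferon-induced membrane protein, Csta3, a stefin, Tbrg1 and S100a7a were the other 4 with the smallest p among those that widened, by +0.58 to +1.07. The Ifitm2 call was lost with the widest single peak, and the S100a7a call when widths were scaled to total covered length. Smpd4 (−0.78), Txndc11 (−0.72), Tfdp2 (−0.46), a partner of E2F factors, and Brd3os (−0.57) narrowed with T618I after scaling, and none of these 4 was called without scaling. Also among those with the smallest p were 2810004N23Rik (−0.65) and Micos10 (−0.66), not called without scaling either. Their calls were lost without any of 6 and 10 single libraries. Of the 12 T618I width calls with the smallest p, 9 held without any 1 library.

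With sgB2, Dusp6, a phosphatase that ends ERK signals (chr10:99261303-99263543), covered 768, 920 and 1097 bp in sgB2 libraries, against 1039, 2015 and 2241 bp in sgNT libraries (−0.78 ± 0.11, adjusted p = 0.0179). The 2 sets overlapped, and the call was lost without sgNT/T618I replicate 2 or sgNT/T618I replicate 3. Dbp, a circadian factor that shares its region with Car11 (chr7:45704145-45705317), covered 490, 537 and 572 bp in sgB2 libraries, against 662, 1066 and 1173 bp in sgNT libraries (−0.76 ± 0.10, adjusted p = 0.0123), and the widths did not overlap. Ccdc166 widened by 1.17 and the region of Khnyn and Cbln3 narrowed by 0.89 on the log2 scale. Mgmt (+0.91), Garem1 (+0.56) and Spint2 (+0.63) also widened, with calls lost without any of 3, 10 and 11 single libraries. Srf (−0.91), Blm (−0.87) and Ifitm2 (−0.75) narrowed, with calls lost without any of 8, 7 and 9. Of these 10 sgB2 width calls with the smallest p, 3 held without any 1 library. Of the 61 regions called in width and the 921 called in rank with T618I, 19 were the same, 9 of them with the same sign. Of all gene-end regions 13.2% were called in rank.

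No gene-end region passed the test for an effect of T618I that differed between sgB2 and sgNT cells, by limma with all 12 libraries. In rank 0 of 7003 were called (0.0449% of all 13356) and 457 had an unadjusted p below 0.05, as had 1031 of all 13356. In width 0 were called (0.00749% of all) and 335 had one, as had 726 of all. The smallest p in rank were at Retreg1 and Garem1, both with an adjusted p of 0.1. For 5851 regions (83.5%) no change of rank with either factor passed, which does not show that their ranks were equal. The matching share over all 13356 regions was not counted. By factor, 13.2% of the gene-end regions were called with T618I and 4.7% with sgB2, against 18.3% and 8.48% of all 13356.

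Promoter letters were also counted by direction of change. Of the promoters whose region fell with T618I (417), 17.3% held the E-box CACGTG, against 6.27% of those whose region rose (415) and 11.8% over all 6868. The NRF1 letters were present in 6.95% of those that fell and 1.93% of those that rose, and the ETS letters in 12% and 6.99%. With sgB2 the order was the other way for the E-box, held by 4.95% of the promoters in regions that fell (182) and 15.9% in regions that rose (138). A GC box was present in 59.3% of those that fell and 81.2% of those that rose with sgB2. With T618I these shares were 74.3% and 69.9%, both near the 71.9% of all 6868. The TATA box was present in 13.2% of those that fell and 2.17% of those that rose with sgB2, and in 6.47% and 6.51% with T618I. These shares are descriptions of letters, and several promoters can lie in 1 region.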

How the data were processed

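Each of the 12 libraries had 1 deposited list of broad peaks on mm10. Per the submitters' processing notes the authors used BWA 0.7.17, SAMtools 1.9, bedtools 2.30, MACS2 2.2.7.1 and deepTools 3.5. The lists give peak positions, and the authors' fold over background (a ratio), −log10 p and −log10 q per peak; these values belong to single peaks and served to rank or select peaks inside their own list. The deposited score column was not used. Genes and promoters came from RefSeq (GRCm38.p6, the coordinates of mm10): 21883 protein-coding genes, with a listed promoter for 6616 (81.9%) of the 8080 genes touched. The members, gene lists and motifs were chosen with earlier results of these data known.

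Ranks and log2 covered lengths of the 13356 regions found in every library were fitted to the 4 groups with limma 3.58.1 (trend; R 4.3.3; 8 residual degrees of freedom), with Benjamini-Hochberg adjustment over all 13356 and a threshold of 0.05; effects are means over the other factor. The script was tested on simulated data. Library values were compared by exact permutation within the other factor (400 arrangements). Genes named were the 6 smallest p per direction among those called, the highest and lowest ranks and SDs, the regions next to each limit, the engineered genes, and in each list up to 4 of the highest ranks and the 3 smallest p of those called; where 5 or fewer regions of a list were called in a direction, all may be named, chosen after their values were seen. Alternatives covered peak thresholds, list lengths, merging, width and distance limits, scaling, rank definition, model and leaving out libraries. Tables were handled with pandas 2.3.3 (Python 3.11.15) and plotted with matplotlib 3.10.9. Replicate numbers were not used as pairs in the main fits. Correlations of deviations between libraries of the same number ran from −0.119 to 0.148, which cannot exclude a batch shared by a number.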

Additional observations from a re-analysis of the deposited data

Results flagged for a closer look

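At 3 of the named gene-end regions all 3 T618I libraries lay on one side of the Empty libraries in sgB2 cells and on the other side in sgNT cells; such opposite order was found at 29 of the 7003 regions (0.414%), against 0.442% of all 13356 invariant regions, so the count is near the background. At Garem1 the ranks were 86.3, 90.4 and 95.0 in sgB2/T618I libraries and 95.3, 95.7 and 96.5 in sgB2/Empty libraries, and 55.4, 57.0 and 60.1 in sgNT/T618I libraries and 8.98, 9.27 and 27.1 in sgNT/Empty libraries, and the change with T618I in sgB2 minus that in sgNT cells was −47.6 points (limma, adjusted p = 0.1). At Retreg1, whose region lies at the far end of the gene, the mean ranks were 9.38 ± 5.04 in sgB2/T618I and 28.6 ± 6.08 in sgB2/Empty libraries, and 23.8 ± 7.39 in sgNT/T618I and 4.37 ± 2.72 in sgNT/Empty libraries (SD, n = 3 each), with a difference of −38.7 points (adjusted p = 0.1, limma). At Stx16 they were 26.8 ± 2.88 in sgB2/T618I and 16.8 ± 2.93 in sgB2/Empty libraries, and 48.5 ± 1.34 in sgNT/T618I and 61.7 ± 9.64 in sgNT/Empty libraries, with a difference of +23.1 points (adjusted p = 0.598, limma, n = 3 each). None passed the test of the difference.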

How the results depend on the processing

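The number of narrow invariant gene-end regions was 5501 with stricter peaks (−log10 q of 5 or more), 6422 with lists cut to equal length and 6763 to 7439 under the other limits of distance and width. Members called in rank with T618I (921) were 410 by percentiles within the whole list, 227 by fold over background, 455 with list length as a covariate, 608 with stricter peaks and 522 without the 2 shortest lists, an alternative chosen after seeing the data; leaving out 1 library gave 594 to 992. Those called with sgB2 (329) were 69 by whole-list percentiles and 31 by fold, and 169 to 429 without 1 library. Members called in width with T618I (61) were 99 without scaling, 22 with list length as a covariate and 39 with stricter peaks, and 22 to 65 without 1 library; with sgB2 (16) they were 8 with stricter peaks and 4 to 22 without 1 library. Interaction calls (0) became 1 in rank by normal scores and 0 to 1 without 1 library, and in width 1 without scaling, 3 by the widest single peak, 1 with the covariate, 4 without the 2 shortest lists and 0 to 5 without 1 library. The cause of these differences was not tested. With the replicate number as a block, a pairing that the correlations left unsettled, members called in width were 37 with T618I and 4 with sgB2, and the rank counts (830 and 276) stayed within 1.5 times. Of 12 libraries, 5 in width and 7 in rank correlated best with a library of their own number.

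Library-wide differences, none of which had passed, changed sign as follows. The median rank of members within the whole list, by equal-length lists, differed by −0.806 points with T618I and 0.0257 with sgB2 (reported values 2.22 and −0.701), and the lead over wide regions with T618I became 0.457 with a width limit of 2000 bp and 0.0534 with 3000 bp (reported −3.84). Without 1 library, the sgB2 difference, with its sign turned without sgNT/Empty replicate 3 or, for 2 of 3 measures, sgB2/Empty replicate 1, ran from −0.493 to 3.15 points in share of peaks, −0.144 to 3.18 in share of covered bases and −2.14 to 0.329 in median rank. Of single named calls, ranks by fold reversed the T618I changes at Cish (−9.42), Socs1 (−4.08), Socs3 (−5.56) and S100a8 (−23.2). Since read depth is unknown, no value could be weighed by it.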
